A study of Mus musculus with 4 samples.

Results

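Chaperones and co-chaperones that fold the glucocorticoid receptor (GR) and hold it ready for hormone are encoded by the 10 genes described here. They are the HSP90 genes Hsp90aa1 and Hsp90ab1, the HSP70 genes Hspa8, Hspa1a and Hspa1b, the J-domain gene Dnajb1, the adaptor gene Stip1, the immunophilin genes Fkbp4 and Fkbp5, and the co-chaperone gene Ptges3. They were picked by name for what their proteins do, out of 21827 protein-coding genes of the GENCODE annotation, with earlier results of these data known. A called peak was counted for a gene when the deposited annotation assigned it to that gene, and peaks assigned to any other gene were kept when their nearest edge lay within 50 kb of its transcription start site (TSS). Of 17545 called peaks, 79 met either condition, 19 in GR replicate 1, 38 in GR replicate 2, 16 in E2A replicate 1 and 6 in E2A replicate 2.

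The series asks how E47, a basic helix-loop-helix factor made together with E12 from the E2A gene, takes part in the action of GR in liver. GR and E2A ChIP-Seq was performed in 2 biological replicates each. All livers came from male E47+/+ C57BL/6 mice, 10 to 16 weeks of age by the study's methods, fed chow and collected at ZT 10, which is 10 h after lights on. The groups differed in the antibody, 8 µg against GR or against E2A, and in the depth to which libraries were reduced, 18 mio read pairs for each GR library and 22 mio for each E2A library. The labels call the animals untreated, whereas a description in the study's supplement calls the livers Dex-treated (dexamethasone is a synthetic GR ligand), and no untreated or mutant comparison was analysed here. The descriptions of both E2A samples name a GR ChIP, and that of E2A replicate 2 also names E47-/-. The titles, antibody and genotype of those samples name E2A and E47+/+, and these were followed. Whole liver holds several cell types, and lists of peaks cannot be checked against the RNA of marker genes.

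The lists held 4291 peaks for GR replicate 1, 7334 for GR replicate 2, 4028 for E2A replicate 1 and 1892 for E2A replicate 2, with no read counts, heights or q-values, so the depth behind a peak is unknown. GR replicate 2 stood apart, with 57.4% of its peaks at annotated promoters, against 34.3 to 41.2% in the other samples. Where the meeting of GR and E2A peaks below rests on GR replicate 2 or on E2A replicate 1, values without that sample are given. By the study's text both ChIPs used the same livers, but which GR sample shares a liver with which E2A sample is not given, so the 4 samples are not independent as the unpaired tests assume.

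Newly made GR is first bound by HSP70 with a J-domain partner, passed to HSP90 through the adaptor Stip1, and held in its hormone-binding form by HSP90 with Ptges3 (p23) and an immunophilin. Fkbp5 lowers the affinity of that complex for hormone and Fkbp4 favours transport of the receptor into the nucleus, and Fkbp5 is itself a classic target gene of GR, through glucocorticoid response elements (GREs) in its introns. Genes of cytosolic chaperones are also targets of the heat shock factors, which bind heat shock elements, inverted repeats of the unit GAA.

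GR peaks were annotated to more of these genes than E2A peaks on average, but GR replicate 1 and E2A replicate 1 had equal counts. An annotated peak was present at 5 of the 10 genes in GR replicate 1, 8 in GR replicate 2, 5 in E2A replicate 1 and 2 in E2A replicate 2. Over all protein-coding genes, the share with an annotated peak was 11.4% in GR replicate 1, 21.8% in GR replicate 2, 12.4% in E2A replicate 1 and 6.13% in E2A replicate 2. The share of the chaperone genes was above the share of all genes in each sample.

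Of the 32 peaks annotated to these genes over the 4 samples, 20 (62.5%) lay at promoters, and of the other 12, 11 were at Fkbp5. Promoters in the deposited annotation reach from 1000 bp before to 500 bp after a TSS. A promoter peak was annotated to 5 of the 10 genes in GR replicate 1, 8 in GR replicate 2, 4 in E2A replicate 1 and 2 in E2A replicate 2. Among all protein-coding genes the shares were 6.12%, 17.7%, 7.08% and 2.95% in the same order. Both GR replicates had a promoter peak at 5 of the 10 genes (Hsp90ab1, Hspa8, Hspa1b, Fkbp4 and Fkbp5), against 5.25% of all genes. Both E2A replicates had a promoter peak at 2 of the 10, Hsp90ab1 and Ptges3, against 2.08% of all genes. No annotated peak was found in any sample for Hspa1a and Stip1, which leaves 2 of 10 without a peak, against 72.7% of all genes.

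**Figure D1:**
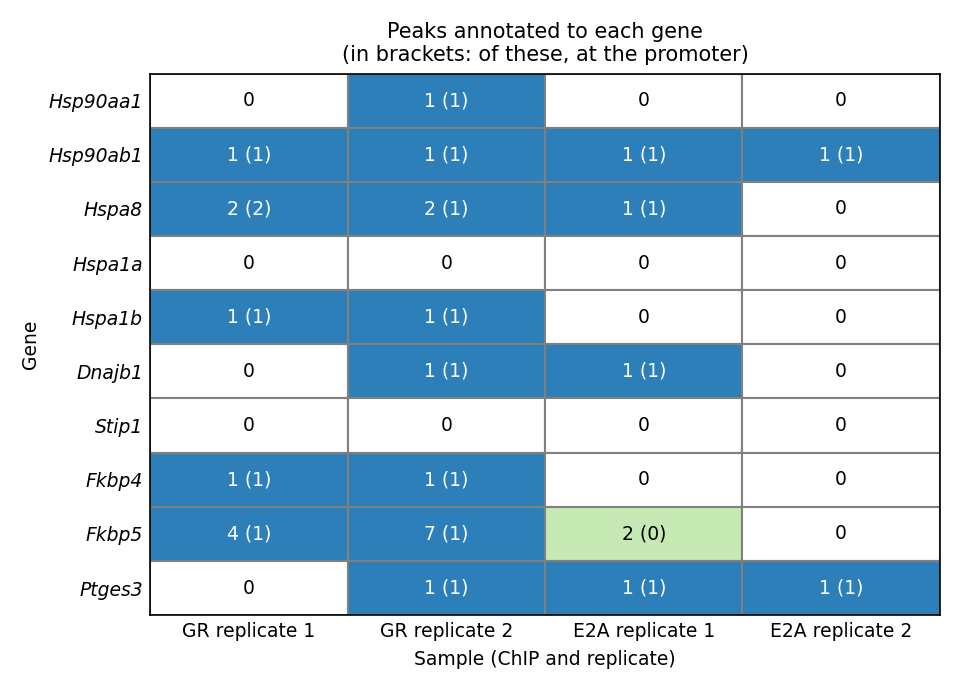
Number of called peaks annotated to each of the 10 genes (vertical) in each sample (horizontal), with the number at the promoter in brackets; blue marks a promoter peak, green a peak elsewhere, white no peak. Hsp90ab1 was the gene with a peak in all 4 samples, Fkbp5 had the most GR peaks (4 and 7), and Hspa1a and Stip1 had 0.

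The difference between the ChIPs could not pass a threshold with 2 samples a group. GR replicates had on average 6.5 ± 2.12 chaperone genes with an annotated peak and E2A replicates 3.5 ± 2.12 (SD, n = 2 each), a difference of 3.0 with a two-sided exact permutation p of 0.667. For promoter peaks the means were 6.5 ± 2.12 and 3.0 ± 1.41 genes, a difference of 3.5 (exact permutation p = 0.333, n = 2 each). Called peaks within 50 kb of these start sites numbered 18 and 35 in the GR replicates and 15 and 6 in the E2A replicates, a difference of the means of 16 (exact permutation p = 0.333, n = 2 each). The values of the ChIPs overlapped for annotated peaks and did not overlap for promoter peaks or for peaks within 50 kb, and 0.333 is the smallest p that this design allows. Without GR replicate 2 the differences were 1.5 genes with an annotated peak, 2.0 with a promoter peak and 7.5 peaks within 50 kb, and without GR replicate 1 they were 4.5, 5.0 and 24.5. The whole lists did not overlap in length either, with 4291 and 7334 peaks for GR against 4028 and 1892 for E2A. The part of list length in these differences was not tested.

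**Figure D2:**
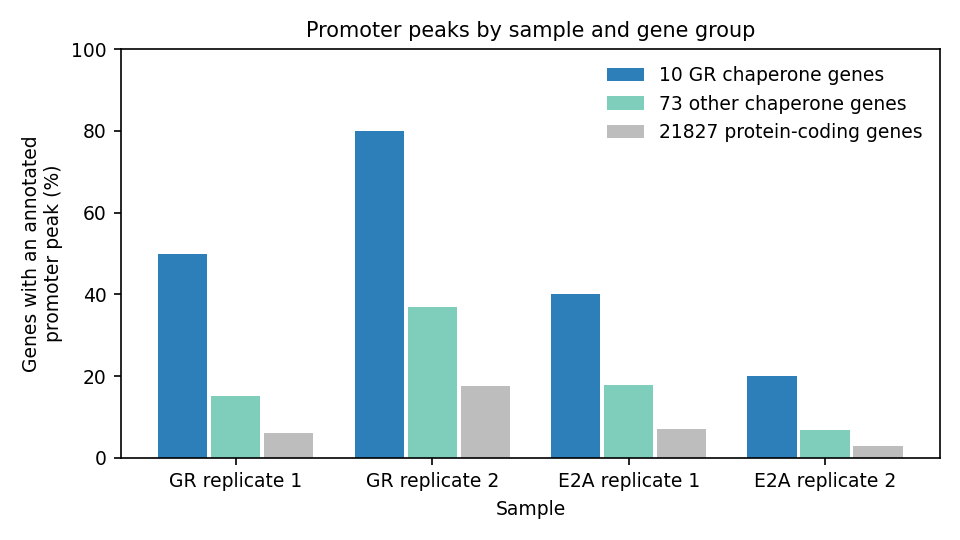
Share of genes (vertical, %) with an annotated promoter peak in each sample (horizontal) for the 10 GR chaperone genes, 73 other chaperone genes and all 21827 protein-coding genes. The 10 genes run from 2 of 10 in E2A replicate 2 to 8 of 10 in GR replicate 2, and their bar is the highest of each sample.

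Hsp90ab1, the constitutive HSP90 gene (chr17, minus strand, TSS at position 45573271 of mm10), was the gene of the 10 with a promoter peak in all 4 samples. The peaks were chr17:45572562-45572818 in GR replicate 1 (257 bp), chr17:45572620-45573953 in GR replicate 2 (1334 bp), chr17:45573271-45573921 in E2A replicate 1 (651 bp) and chr17:45573336-45573981 in E2A replicate 2 (646 bp). The E2A peaks shared 586 bp with each other and lay at and upstream of the TSS, whereas the GR peak of replicate 1 began 453 bp inside the gene and met neither of them. The peak of GR replicate 2 was among the widest of its sample (width percentile 96.3) and covered both places, with 199 bp shared with GR replicate 1, 651 bp with E2A replicate 1 and 618 bp with E2A replicate 2. That GR and E2A peaks met at this promoter therefore rests on GR replicate 2.

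The GR peak of replicate 1 held a GRE with 2 mismatches, printed here with its flanks because it is the only GRE match within peaks of an HSP90 gene (GRE: AGAACA half-sites as an inverted repeat 3 bases apart, 12 letters scored, up to 2 mismatches, both strands). The match lies in an intron, outside annotated exons, at chr17:45572602-45572616, and the printed stretch is chr17:45572567-45572651, minus strand, GRCm38.p6 (mm10). Capitals mark the match.
Hsp90ab1 GRE match: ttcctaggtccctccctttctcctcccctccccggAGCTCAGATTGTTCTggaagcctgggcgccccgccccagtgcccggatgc

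The match lay just outside the peak of GR replicate 2 and overlapped a heat shock element of 2 units. Of all 300 bp centres of merged GR peaks, 5.42% held a GRE at this stringency. Of all promoter windows of 300 bases (250 before to 50 after the TSS) 1.52% did. The Hsp90ab1 match was found by searching the whole peak region, so it cannot be set against these shares. Within 50 kb of the start sites described here, 0 of 37 centres of merged GR peaks held a GRE at this stringency.

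Hsp90aa1, the heat-inducible HSP90 gene (chr12, minus strand, TSS at 110696395), had a single peak, chr12:110696092-110696569 in GR replicate 2 (478 bp), across the TSS. The nearest peak lay 282316 bp away in GR replicate 1, 192811 bp in E2A replicate 1 and 475607 bp in E2A replicate 2. The promoter was thus called in 1 sample of 4. Its peak covered a heat shock element of 3 alternating units, GAANNTTC or TTCNNGAA with a further unit, which began 4 bp before the TSS. It is shown because Hsp90aa1 was the only gene of the 10 with such an element in its 300-base promoter window at the TSS used here. That depends on the start used, since elements of Hspa8 begin 213 and 55 bp before its RefSeq start. The stretch is chr12:110696372-110696434, minus strand, with the element in capitals.
Hsp90aa1 heat shock element: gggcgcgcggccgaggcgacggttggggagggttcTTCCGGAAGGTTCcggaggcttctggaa

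Over all promoter windows, 0.486% (106 of 21827) held this element. No E2A peak was annotated to Hsp90aa1, and E2A peaks over its paralog Hsp90ab1 were present in both replicates.

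**Figure D3:**
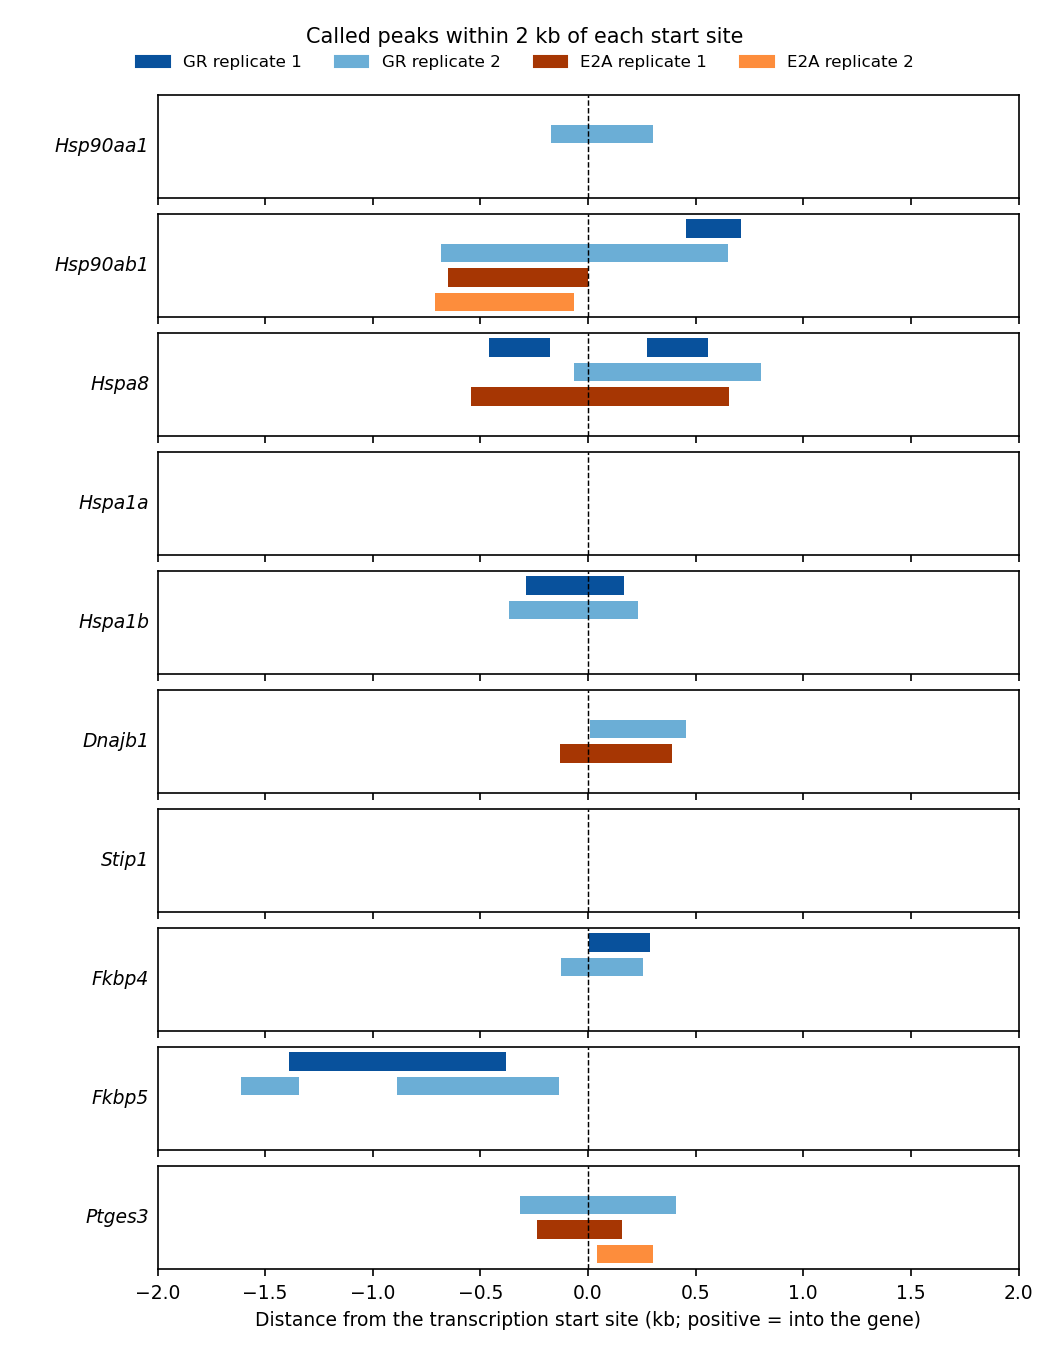
Called peaks within 2 kb of the TSS of each of the 10 genes, as bars from start to end, with distance from the TSS in kb on the horizontal axis (positive into the gene, dashed line at the TSS) and 1 line per sample from GR replicate 1 at the top to E2A replicate 2 at the bottom. At Hsp90ab1 and Ptges3 the GR replicate 2 peak met E2A peaks of both replicates, and no bar is drawn for Hspa1a and Stip1.

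Hspa8, which encodes the constitutive cytosolic HSP70 (chr9, plus strand, TSS at 40800984), had GR peaks in both replicates and an E2A peak in replicate 1. GR replicate 1 had a pair of narrow peaks, chr9:40800523-40800806 (284 bp) and chr9:40801256-40801543 (288 bp), on either side of this TSS. The start that RefSeq gives (40801276) lies inside the second of them. GR replicate 2 had chr9:40800920-40801787 (868 bp) and a wide peak behind the gene, chr9:40805806-40807448 (1643 bp, width percentile 97.5), which began 4822 bp downstream of the TSS. E2A replicate 1 had chr9:40800441-40801637 (1197 bp, width percentile 98.5), which contained both GR replicate 1 peaks and 718 bp of the GR replicate 2 peak. E2A replicate 2 had none, and its nearest peak lay 1949219 bp away.

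The promoter region of Hspa8 held a pair of heat shock elements of 3 units, which are shown because they lie inside the peaks of GR replicate 2 and E2A replicate 1 and in the gap between the peaks of GR replicate 1. They are at chr9:40801063-40801075 and chr9:40801221-40801233, and the printed stretches are chr9:40801055-40801083 and chr9:40801213-40801241, plus strand, with the elements in capitals.
Hspa8 element nearer the TSS: gcgagcgtGAAAGTTCCAGAAcgccgcgg
Hspa8 element farther from the TSS: cggcacccTTCTGGAAGGTTCtaagacag

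They begin 79 and 237 bp downstream of the TSS used here, the outermost start of the principal transcripts, and 213 and 55 bp before the start that RefSeq gives (40801276). Of the centres of merged GR peaks 0.603% held an element of 3 units, and of those of E2A peaks 0.502%.

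The stress-inducible HSP70 genes Hspa1a and Hspa1b lie next to each other on chr17, minus strand, with start sites 12918 bp apart. A GR peak covered the Hspa1b TSS (34959238) in both replicates, chr17:34959070-34959527 (458 bp) in replicate 1 and chr17:34959006-34959607 (602 bp) in replicate 2, and the second contained the first. No GR peak was called at Hspa1a, whose nearest GR peaks lay 7531 bp away in replicate 1 and 9479 bp in replicate 2, both annotated to Lsm2. No E2A peak was annotated to Hspa1a or Hspa1b, and the nearest to Hspa1b were at 1110038B12Rik, 6260 bp away in replicate 1 and 6421 bp in replicate 2.

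The promoters of the pair are nearly the same sequence, and they are shown for that reason: the authors kept uniquely mapped read pairs, and such pairs can be placed only where the copies differ. Over 300 bases, 296 (98.7%) were identical. The differences were C44T, T47C, T249G and C276T, with the base of Hspa1a first and positions counted from 1 at the 5′ end of the stretches below, which run from 250 bases before the TSS to 30 after it (chr17:34972127-34972406 for Hspa1a and chr17:34959209-34959488 for Hspa1b, minus strand, RefSeq promoter sequence on GRCm38.p6). Capitals mark the differing bases.
Hspa1a: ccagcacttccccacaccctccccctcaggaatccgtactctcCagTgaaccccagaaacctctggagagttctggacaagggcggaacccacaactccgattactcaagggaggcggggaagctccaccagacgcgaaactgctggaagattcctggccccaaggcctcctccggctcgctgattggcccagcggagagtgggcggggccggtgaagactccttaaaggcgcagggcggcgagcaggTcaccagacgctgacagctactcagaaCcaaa
Hspa1b: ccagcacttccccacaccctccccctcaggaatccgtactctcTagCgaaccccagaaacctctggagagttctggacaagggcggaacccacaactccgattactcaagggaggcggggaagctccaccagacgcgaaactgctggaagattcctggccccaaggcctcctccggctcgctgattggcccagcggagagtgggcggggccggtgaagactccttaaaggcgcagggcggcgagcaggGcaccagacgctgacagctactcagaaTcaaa

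Across the whole 602 bp of the Hspa1b GR region, 551 positions (91.5%) matched the corresponding stretch at Hspa1a. Of its words of 50 bases, 46.8% (259 of 553) also occurred at Hspa1a, and of its words of 100 bases 21.9% (110 of 503) did. Both promoters held the same heat shock element of 2 units, which began 104 bp before the TSS. A peak at Hspa1b and none at Hspa1a are therefore values of the mappable part of these copies, and how far the mapping filter set the difference was not tested.

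Dnajb1, a J-domain protein that starts the HSP70 cycle (chr8, plus strand, TSS at 83608193), had a peak in GR replicate 2, chr8:83608201-83608647 (447 bp), and in E2A replicate 1, chr8:83608063-83608585 (523 bp). They shared 385 bp. The other replicate of each ChIP had no peak at the gene: the nearest lay 13712 bp away at Tecr in GR replicate 1 and 346792 bp away in E2A replicate 2. The shared stretch held heat shock elements of 2 units that began 28 and 56 bp after the TSS. They are printed from chr8:83608210-83608239 and chr8:83608238-83608267, plus strand, with the elements in capitals, as the matches within a promoter where peaks of both ChIPs met.
Dnajb1 element nearer the TSS: cgggaggggcgGAAGGTTCtggagggctgg
Dnajb1 element farther from the TSS: ggcgggatctgGAAGCTTCcgccggacggg

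Stip1, the adaptor between HSP70 and HSP90 (chr19, minus strand, TSS at 7039967), had no annotated peak in any sample. Its window of 50 kb held peaks of GR replicate 2, 3 in all, the nearest 16914 bp upstream at Macrod1, and none of the other samples. The nearest E2A peaks lay 88050 bp away in replicate 1 and 94690 bp in replicate 2. The Stip1 promoter window also held a heat shock element of 2 units, 6 bp after the TSS, where no peak was called (chr19:7039943-7039972, minus strand, element in capitals).
Stip1 element: cttctagtaggTTCCAGAAggcggcgcgtg

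Fkbp4, the immunophilin that favours nuclear transport of GR (chr6, minus strand, TSS at 128438677), had a promoter peak in both GR replicates and none in E2A. The peaks were chr6:128438391-128438671 (281 bp) and chr6:128438421-128438801 (381 bp), with 251 bp shared. The nearest E2A peaks lay 13727 bp away in replicate 1 and 13709 bp in replicate 2, both over the promoter of Itfg2, where GR replicate 2 had a peak as well. A heat shock element of 2 units began 130 bp before the Fkbp4 TSS, at the edge of the GR replicate 2 peak and inside no peak (chr6:128438789-128438818, minus strand, element in capitals).
Fkbp4 element: ccgcttctctaGAAAGTTCtccgctcccgc

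Fkbp5, the immunophilin that restrains GR (chr17, minus strand, TSS at 28517524, gene of 118431 bp), had the most GR peaks of the 10 genes and the only ones annotated to introns. GR replicate 1 had 4 annotated peaks, GR replicate 2 had 7, E2A replicate 1 had 2 and E2A replicate 2 had 0. In each GR replicate 4 places were called that the other replicate also called: an intron peak far inside the gene, an intron peak near the TSS, the promoter, and an exon of an upstream transcript. GR values were thus above E2A values at this gene in all samples, and no E2A peak lay at its promoter.

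The promoter peaks were wide, chr17:28517905-28518912 in GR replicate 1 (1008 bp, width percentile 96.9) and chr17:28517658-28518413 in GR replicate 2 (756 bp, width percentile 86.8), and both lay upstream of the TSS, from 381 and 134 bp away. They shared 509 bp. GR replicate 2 also had a narrow peak of 273 bp, 1342 bp upstream, of which 47 bp met the wide peak of GR replicate 1.

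The peak near the TSS lay in intron 1 of 13, chr17:28512565-28513212 in GR replicate 1 (648 bp) and chr17:28512742-28513102 in GR replicate 2 (361 bp, wholly within the first). The upstream exon peak was chr17:28522600-28523333 in GR replicate 1 (734 bp) and chr17:28522912-28523450 in GR replicate 2 (539 bp), more than 5 kb before the TSS. It is the place where E2A met GR: the peak of E2A replicate 1, chr17:28522711-28522993 (283 bp), lay wholly inside that of GR replicate 1 and shared 82 bp with that of GR replicate 2. E2A replicate 2 had no peak there, its nearest lay 188926 bp from the TSS, and so the meeting of GR and E2A at Fkbp5 rests on E2A replicate 1.

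The peak far inside the gene, annotated to intron 1 of 10 of a shorter transcript, was chr17:28442267-28442689 in GR replicate 1 (423 bp) and chr17:28442308-28442562 in GR replicate 2 (255 bp, width percentile 2.2). They began 74835 and 74962 bp downstream of the TSS, and 43460 and 43587 bp by the deposited distances, which count from the inner start that RefSeq gives (28486149). Both contained an exact GRE at chr17:28442419-28442433, 75091 bp downstream of the TSS. No E2A peak met it, and the nearest, chr17:28438614-28438916 in E2A replicate 1, was called by that sample alone. GR replicate 2 alone had further intron peaks of 323 bp each at chr17:28428850-28429172 and chr17:28460428-28460750.

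A further GR peak inside the gene was annotated to the neighbouring gene Tulp1 and lay beyond the window of 50 kb, so neither rule counted it, and it is named here after its values were seen. It was chr17:28420159-28420681 in GR replicate 1 (523 bp) and chr17:28420148-28420780 in GR replicate 2 (633 bp), with no E2A peak. It began 96843 and 96744 bp downstream of the Fkbp5 TSS. It held an exact GRE at chr17:28420321-28420335 and a second match with 2 mismatches. Of 8795 merged GR peaks, 14 (0.159%) held an exact GRE within their central 300 bp, 8 of them called in both replicates, and these 2 places within Fkbp5 were among the 8. In E2A peaks the share was 0.0627% (3 of 4783), and among promoter windows it was 0.00458% (1 of 21827).

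The GRE matches of Fkbp5 are shown from the deepest to the most upstream, because the exact ones lie in GR peaks of both replicates. E2A peaks did not meet these GR peaks, which was the more frequent case. Of the 14 merged GR peaks with an exact GRE, 2 met an E2A peak, and of all merged GR peaks 30.7% did. The stretches are chr17:28420286-28420370, chr17:28442384-28442468, chr17:28513090-28513174 and chr17:28523142-28523226, minus strand, GRCm38.p6 (mm10), with the matches in capitals.
Fkbp5 exact GRE, peak annotated to Tulp1: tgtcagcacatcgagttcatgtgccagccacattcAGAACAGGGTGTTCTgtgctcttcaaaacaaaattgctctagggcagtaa
Fkbp5 exact GRE, intron peak: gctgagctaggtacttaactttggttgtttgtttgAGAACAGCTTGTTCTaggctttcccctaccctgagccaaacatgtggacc
Fkbp5 GRE match in intron 1: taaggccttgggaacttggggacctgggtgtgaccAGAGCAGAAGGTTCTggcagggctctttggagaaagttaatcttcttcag
Fkbp5 GRE match upstream of the gene: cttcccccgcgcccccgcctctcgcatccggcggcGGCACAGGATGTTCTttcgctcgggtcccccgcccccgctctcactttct

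The match in intron 1 has 2 mismatches, lay inside the peak of GR replicate 1 only, and overlapped a heat shock element of 2 units. The match upstream of the gene, in the peaks annotated to the upstream exon and outside the exons of the coding transcripts of Fkbp5, has 2 mismatches and lay inside the peaks of both GR replicates, outside the E2A peak. No GRE match was found in the wide promoter region of Fkbp5, and none of the 10 promoter windows held a match with up to 2 mismatches.

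**Figure D4:**
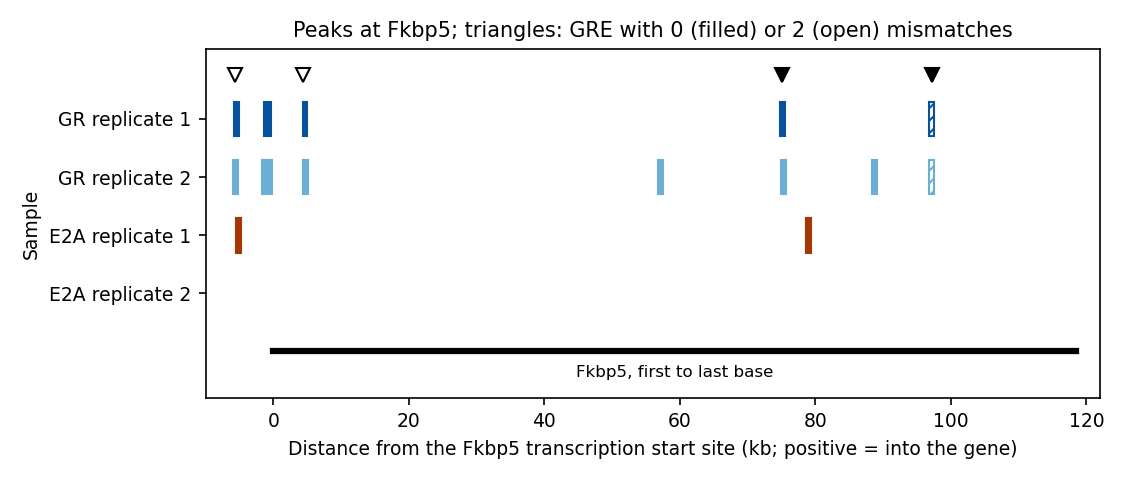
Called peaks at Fkbp5 by distance from its TSS in kb (horizontal, positive into the gene) in the 4 samples (vertical); filled bars are peaks annotated to Fkbp5, hatched bars those annotated to Tulp1, and short peaks are drawn wider than they are so that they can be seen. Triangles mark GRE matches with 0 (filled) or 2 (open) mismatches, without the second match of the hatched peak: both exact GREs lie in GR peaks of both replicates, 75091 and 97189 bp from the TSS.

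Ptges3, the co-chaperone that holds HSP90 on its client (chr10, plus strand, TSS at 128058954), had a promoter peak in both E2A replicates and in GR replicate 2. The peaks were chr10:128058716-128059113 in E2A replicate 1 (398 bp), chr10:128058997-128059254 in E2A replicate 2 (258 bp, width percentile 7.1) and chr10:128058639-128059364 in GR replicate 2 (726 bp), and the GR peak contained both E2A peaks. In GR replicate 1 the nearest peak lay 23139 bp away, at Naca. Ptges3 was the only gene of the 10 with a promoter peak in both E2A replicates and not in both GR replicates. Its 300-base promoter window held none of the motifs searched, no GRE, heat shock element or E-Box CANNTG. That window ends at 128059003 and so leaves out most of the E2A replicate 2 peak. The whole peak region held no GRE, heat shock element, CACGTG or CAGCTG, but CANNTG was not searched over all of it.

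A GR and an E2A peak met over 5 of the 10 genes (Hsp90ab1, Hspa8, Dnajb1, Fkbp5 and Ptges3), against 8.88% of all genes. Without GR replicate 2 this held for 2 genes (Fkbp5 and Hspa8), and without E2A replicate 1 for another 2 (Hsp90ab1 and Ptges3), so none of the 5 was left when both samples were set aside. Leaving out GR replicate 1 or E2A replicate 2 kept all 5. Fkbp4 and Hspa1b had a GR promoter peak in both replicates and no annotated E2A peak in either. Over all genes, 12.4% had an annotated peak in E2A replicate 1 and 6.13% in E2A replicate 2, so lacking one was common. The share of all genes with this combination was not computed, so these genes cannot be set against it.

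Around all 10 start sites, the GR peaks merged into 37 regions within 50 kb, of which 14 (37.8%, exact 95% interval 22.5 to 55.2%, counting error only) met an E2A region. Over the genome 30.7% of 8795 merged GR regions did. Of the 15 merged E2A regions in these windows, 13 (86.7%, interval 59.5 to 98.3%) met a GR region, against 58.1% of 4783. Neighbouring regions are not independent of each other, so these shares are a description. The E2A share rested on GR replicate 2: without that sample 4 of 15 (26.7%) met a GR region, against 35.1% over the genome. Without GR replicate 2 the GR share also fell below that of the genome: 5 of 18 GR regions (27.8%) met an E2A region, against 39.4%. Without E2A replicate 1, 6 of 37 GR regions (16.2%) met an E2A region, against 13.0% over the genome, and 6 of the 6 E2A regions left met a GR region. Of the 37 GR regions 15 (40.5%) were called in both replicates, against 31.1% of all merged GR regions. Of these 15, 2 (13.3%) met an E2A region called in both of its replicates, against 17.1% over the genome.

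Many regions in these windows belonged to neighbouring genes. Of the 35 peaks of GR replicate 2 within 50 kb, 23 were annotated to other genes, and of the 18 of GR replicate 1, 10 were. The window of Hsp90ab1 held the most GR peaks, 7 in replicate 1 and 9 in replicate 2, with 4 and 2 E2A peaks, most of them over Slc29a1, a nucleoside transporter gene upstream. At the 3′ end of Slc29a1, chr17:45585290-45585751 in GR replicate 1 met peaks of GR replicate 2 and of both E2A replicates, which made it the only place in the 10 windows where called peaks of all 4 samples overlapped. The windows of Hspa1a and Hspa1b overlap and held, outside Hspa1b, promoter peaks of GR replicate 2 that met E2A peaks at Neu1, 1110038B12Rik, Lsm2 and D17H6S56E-5. GR peaks of both replicates at Tecr, near Dnajb1, and at Naca, near Ptges3, met no E2A peak.

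Heat shock elements of 2 units (GAANNTTC or TTCNNGAA, both strands, exact) were present in the 300-base promoter windows of 6 of the 10 genes (Hsp90aa1, Hspa1a, Hspa1b, Stip1, Fkbp4 and Dnajb1), against 13.9% of all promoter windows. They were present where peaks were called and where none was, as at Hspa1a and Stip1. The count depends on the start used: elements of Hspa8 lie after the TSS used here and before its RefSeq start. The E-Box CANNTG was in 5 of the 10 windows, against 69.0% of all, and its forms CACGTG and CAGCTG were in 0 of 10, against 7.75% and 15.7%. Called peaks outside these windows held CAGCTG at Hspa8, Dnajb1 and Fkbp5, and CACGTG at Hspa8, Hsp90ab1 and Fkbp5. A CAGCTG of Hspa8 (40801293) lies just after its RefSeq start (40801276). Among centres of merged peaks within 50 kb, CAGCTG was in 13 of 37 (GR) and 5 of 15 (E2A), against 17.1% and 17.2% of all centres. For CACGTG these were 2 of 37 and 0 of 15, against 7.95% and 8.38%. The promoter windows of the 10 genes had a median GC content of 64.8% (58.0 to 75%), against 55.7% over all promoters, and a median of 27 CpG dinucleotides against 12. The part of base composition in the number of promoter peaks was not tested.

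The share of genes with an annotated peak among 73 other chaperone genes, in 4 lists, lay between that of the 10 genes and that of all genes in each sample, and in E2A replicate 2 it was close to that of all genes. An annotated peak was present at 14 (19.2%) in GR replicate 1, 27 (37.0%) in GR replicate 2, 17 (23.3%) in E2A replicate 1 and 6 (8.22%) in E2A replicate 2, against 11.4%, 21.8%, 12.4% and 6.13% of all genes. The means were 20.5 ± 9.19 for GR and 11.5 ± 7.78 for E2A, a difference of 9.0 genes (two-sided exact permutation p = 0.667, n = 2 each), and the ranges of the ChIPs overlapped. The difference was 2.5 without GR replicate 2, 3.5 without E2A replicate 2, 14.5 without E2A replicate 1 and 15.5 without GR replicate 1. A promoter peak in both GR replicates was present at 9 of the 73 (12.3%, against 5.25% of all genes) and in both E2A replicates at 4 (5.48%, against 2.08%).

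Among the 21 HSP90 paralogs, co-chaperones and cofactors, 13 had an annotated peak in at least 1 sample, against 27.3% of all protein-coding genes. Stub1, the ubiquitin ligase that acts with both HSP70 and HSP90, was the gene with a promoter peak in both GR replicates (708 and 663 bp), and Trap1, the mitochondrial HSP90, was the gene with a promoter peak in both E2A replicates (514 and 356 bp). No E2A peak met the Stub1 peaks, and the Trap1 peaks met a peak of GR replicate 2 (295 bp). Both genes therefore differed from Hsp90ab1, where all samples had a promoter peak.

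Of the 18 HSP70 and HSP110 genes and exchange factors, 6 had a peak in at least 1 sample, near the 27.3% of all genes. Bag3, an HSP70 exchange factor, had a promoter peak in both GR replicates (357 and 618 bp) and peaks of both E2A replicates 33477 and 33552 bp from its TSS, which met no GR peak. Hspa4, an HSP110 gene, had GR promoter peaks of 507 and 364 bp, and Hspa2 had E2A promoter peaks of 585 and 458 bp and a GR peak of 298 bp in replicate 2, which met that of E2A replicate 1.

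Among the 19 J-domain genes, 11 had a peak in at least 1 sample, against 27.3% of all genes. Dnaja1, Dnaja2 and Dnajc3 had promoter peaks in both GR replicates that no E2A peak met, and Dnaja1, a cytosolic partner of HSP70, had widths of 598 and 575 bp. The peaks of Dnajb4 lay at different promoters in the GR replicates, chr3:152210030-152210380 in replicate 1 and chr3:152193581-152193924 in replicate 2, so they were not the same region. Dnajb2 had promoter peaks in both E2A replicates (386 and 402 bp) that met a GR peak of replicate 2.

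Of the 15 small heat shock proteins, chaperonins and heat shock factors, 6 had a peak in at least 1 sample, against 27.3% of all genes. Hspd1, the mitochondrial chaperonin, had promoter peaks in all 4 samples, 918 and 1002 bp wide for GR and 626 and 399 bp for E2A, and they met. Hspb8, a small heat shock protein that works with Bag3, had promoter peaks in both GR replicates (562 and 553 bp) and in E2A replicate 1 (320 bp). With Bag3, Hspd1 was 1 of 2 genes of the 73 with an annotated peak in all samples.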

How the data were processed

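Called peaks of GR and E2A ChIP-Seq in mouse liver, 2 replicates each, were analysed. Upstream, the authors mapped the libraries to mm10 (BWA-MEM), dropped duplicates (Picard), kept uniquely mapped pairs, reduced them to 18 or 22 mio pairs and called peaks per sample (MACS2), and the submitters' processing notes give BWA 0.7.13, Picard 1.119 and MACS2 2.1.0. The deposited values are start, end and width of each peak and its distance to the nearest TSS, all in bp and not normalized, with gene feature and symbol. The peak threshold and control are not given in the sources used here. File names number the GR replicates the other way round from the titles, which were followed.

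Peaks were matched to GENCODE vM21 protein-coding genes by Ensembl ID or symbol, and a TSS was the outermost 5′ end of the principal protein-coding transcripts. Within a ChIP, overlapping peaks (1 bp or more) were merged, and GR and E2A peaks with such an overlap were said to meet. Motifs were searched on GRCm38.p6, the same sequence as mm10. RefSeq promoter sequences matched for 7 of the 10 genes. Samples were compared by two-sided exact permutation tests, and shares have exact binomial 95% intervals. The code was tested on simulated data. Python 3.11.15, numpy 2.4.6, pandas 2.3.3, scipy 1.17.1, pysam 0.24.0, biopython 1.88 and matplotlib 3.10.9 were used.

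All 10 genes are accounted for. Other chaperone genes are named when they had an annotated peak in all samples or a promoter peak in both replicates of a ChIP, and neighbouring peaks by their annotated gene. The genes and lists were chosen with earlier results of these data known. Replicates are biological replicates by the labels, and by the study's text both ChIPs used the same livers; since no source matches GR samples with E2A samples by liver, unpaired tests were used, with paired ones as alternatives. Alternatives changed the window, overlap rule, width, replicates required, motif stringency and the samples included.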

Additional observations from a re-analysis of the deposited data

How the results depend on the processing

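With 2 samples a group no test could pass a threshold, so the alternatives bear on direction and size. Of 28 alternatives of the 4 differences between GR and E2A, without the replicate blocks, which cannot move a difference, 22 changed the value, and GR stayed above E2A in those 22. For promoter peaks and peaks within 50 kb the groups did not overlap, so leaving out a sample could not have reversed those differences. Leaving out each sample in turn moved the difference in genes with an annotated peak from 1.5 (without GR replicate 2 or E2A replicate 2) to 4.5 (without GR replicate 1 or E2A replicate 1), in genes with a promoter peak from 2.0 to 5.0 and in peaks within 50 kb from 7.5 to 24.5, the ends being without GR replicate 2 and without GR replicate 1, and in other chaperone genes from 2.5 to 15.5, with the same samples at the ends. Peaks that met the other replicate gave differences of 9.5 peaks within 50 kb and 4.0 other chaperone genes, and a window of 10 kb gave 7.5 peaks. The share of merged GR regions that met E2A was 13.3% (2 of 15) when both ChIPs required both replicates, and ran from 16.2% (without E2A replicate 1) to 37.8% when a sample was left out; 8 of its 10 alternatives stayed within the interval of the reported share. The share of merged E2A regions that met GR, with alternatives added after seeing the data, was 33.3% (2 of 6) when both replicates were required, against 43.8% over the genome, and ran from 26.7% (4 of 15, without GR replicate 2) to 100% (6 of 6, without E2A replicate 1). GRE matches in the 15 regions numbered 1 with up to 1 mismatch, 4 with up to 2 and 11 with up to 3, and heat shock elements 16 of 2 units and 3 of 3 units.

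Samples of equal number did not deviate together (correlation over 21827 genes -0.071 for annotated and -0.125 for promoter peaks). With the replicate number as a block the difference in annotated genes stayed 3.0 (exact paired p = 1.0), and with crossed numbers, added after seeing the data, it was 3.0 (exact paired p = 0.5, the smallest possible); the block changed no call among the 4 differences.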
